A study of Mus musculus with 17 samples.

Results

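Across the mouse autosomes, 1272 dense domains of acetylated chromatin held no BRG1 peak at postnatal day 12 (P12). A domain was a run of H3K27ac regions listed both for mice with BRG1 and for mice with BRG1 removed, called common regions. Neighbouring regions of a domain lay 10 kb or less apart. Domains with 8 or more regions were kept, and of these 4511 domains the 1272 (28.2%) had a span that met no peak of the P12 BRG1 list. The other 3239 held at least 1 peak. With domains of every size counted, chromosomes 1 to 19 held 47537. The domains were therefore chosen by the number and spacing of common H3K27ac regions and by the P12 BRG1 peaks, and these values are given as a description.

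H3K27ac is the acetylation of a lysine in the tail of histone H3, a modification found at promoters and enhancers in use. Where many acetylated regions lie close together, the stretch often covers a strongly used gene with its promoter and a cluster of enhancers, as at genes that define a cell's identity. BRG1 is an ATPase of the SWI/SNF complex, which slides and evicts nucleosomes and opens promoters and enhancers. In the male germ line it is known as a factor needed for meiosis. Mvh (Ddx4) is a germ cell RNA helicase gene, and Mvh-cre removes floxed genes in germ cells.

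The study mapped chromatin in spermatogenic cells from testes by ChIP-seq after digestion with micrococcal nuclease. BRG1 was precipitated from wild type CD1 mice at P12 and at postnatal day 18 (P18), with 2 libraries at each age. H3K27ac was precipitated at P12 from mice of mixed background, from 2 libraries with BRG1 (Brg1WT) and 2 from the conditional knockout (Brg1cKO), in which Mvh-cre removed it. BRG1 and H3K27ac were thus mapped in mice of different strain background. Common regions are the H3K27ac regions that the authors listed for both genotypes, and gained and lost regions are those they classed as gained or lost in Brg1cKO. The sources used here do not say whether the 2 libraries of a group came from separate animals, or whether animals were pooled. The labelled cell type was not checked against marker genes here.

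Each list is given for both libraries of a group together, so no value has an error between replicates, and the read depth behind a list is unknown. Intervals in parentheses are exact 95% intervals (Clopper-Pearson for a share, order statistics for a median, Poisson for a rate) and cover counting error only. Domains are not replicates of a condition, so no test was run between sets of domains. Regions are named by mm9 coordinates counted from 1.

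The domains without BRG1 held 14512 of the 167381 autosomal common regions (8.67%), against 65556 (39.2%) in domains with BRG1. Together they spanned 45.7 Mb, of which 4.64 Mb was acetylated. The number of regions in a domain ran from 8 to 43 with a median of 10. The span had a median of 33039.5 bp (32108 to 33801) and ran from 8535 to 149851 bp. The acetylated length had a median of 3200 bp (3132 to 3282), which covered a median of 10.1% of the span. Most of each domain thus lay between its acetylated regions, and the median gap between neighbouring regions was 2431 bp.

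The domain with the most regions lay at chr11:50427184-50577034. It held 43 regions over 149851 bp, the longest span of the 1272, and 15016 acetylated bp. Its widest regions were 1093 bp, at 50464219 to 50465311, and 900 bp, at 50486577 to 50487476. The nearest P12 peak lay 10025 bp outside the domain. This domain thus held the most acetylation of the 1272 with no listed BRG1 peak in its span.

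A pair of domains held 35 regions each. The first, at chr8:34890102-34984234, held 12169 acetylated bp in 94133 bp, and its nearest P12 peak lay 11258 bp away. It also held 1 lost region, at 34978875 to 34979052. The second, at chr9:45026531-45154464, was longer (127934 bp) with less acetylation (10454 bp), and its nearest P12 peak lay 15789 bp away. These 3 domains were the only ones of the 1272 with more than 30 regions.

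The next in number were at chr2:93212401-93297636, with 30 regions, and at chr12:12771023-12865833, with 29. Their nearest P12 peaks were 37.6 and 45.3 kb away. By acetylated length, 2 other domains entered the first 5: 1 at chr9:48498870-48569920 (10378 bp in 25 regions) and 1 at chr17:6583119-6664384 (10347 bp in 29 regions). The latter was the most remote from BRG1 among these large domains, at 107 kb.

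**Figure D1:**
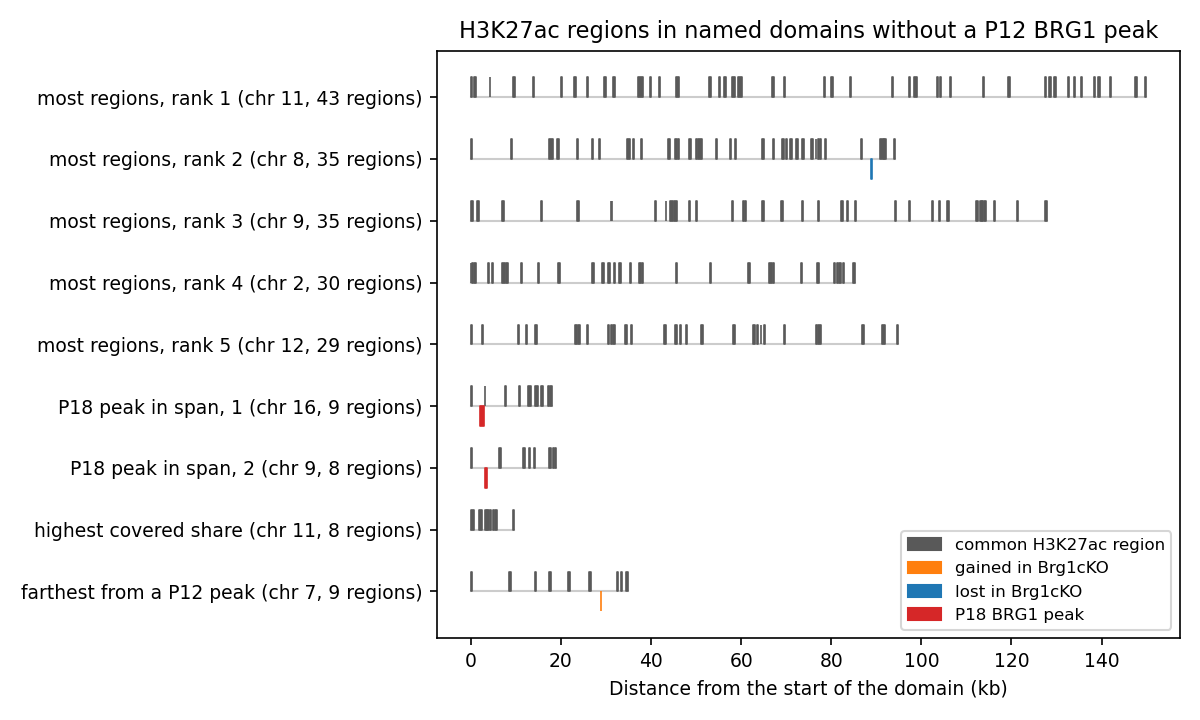
Layout of 9 named domains without a P12 BRG1 peak, as distance from the start of each domain in kb. Grey blocks are common H3K27ac regions and blocks below the line are gained regions, lost regions or P18 BRG1 peaks, each drawn at least 1 line wide. The 5 domains drawn for their region number, with 29 to 43 regions, spread over 85.2 to 149.9 kb, while the one with the highest covered share packs 8 regions into 9.59 kb.

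Compact domains were also among the 1272. The highest covered share was in a domain at chr11:54125982-54135566, where 8 regions covered 35.2% of 9585 bp. A domain at chr12:112518340-112530811 had 10 regions over 34.2% of 12472 bp, and a domain at chr2:122398416-122410101 had 9 regions over 30.1% of 11686 bp. The first and the second had a P12 peak 7.97 and 0.938 kb outside them, and the third 26.5 kb. Dense packing of acetylated regions in a short span was thus found without a listed BRG1 peak inside it.

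The threshold of 8 regions cut through a continuous range. At exactly 8 regions, 327 of 696 domains had no BRG1 peak, and at 7 regions, just outside, 482 of 905. The 8-region domain with the most acetylation, at chr5:25303972-25324676, held 4691 bp, of which 1643 bp lay in 1 region. The corresponding 7-region domain, at chr6:136791377-136825829, held 3963 bp and had its nearest P12 peak 14.7 kb away.

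On the other side of the rule, 1479 of the 3239 domains with BRG1 (45.7%) held a single P12 peak. The strength of a peak is its −log10 q from the authors' peak caller, where higher is more certain. These single peaks had a median strength of 5.35. The domain whose only peak was the weakest lay at chr2:153739473-153777507. It held 10 regions, and its peak had a −log10 q of 1.45. It also held 1 lost H3K27ac region. The names of the P12 peaks state a threshold of 0.05, so absence of a listed peak is a statement at that threshold. When only peaks with a −log10 q of at least 5 were counted, 53.7% of the 4511 domains were without BRG1.

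Domains with more H3K27ac regions were less often without BRG1. The share without a peak was 47.0% (43.2 to 50.8) at 8 regions, 29.4% (24.2 to 35.1) at 12 regions and 10.3% (7.90 to 13.04) at 21 to 30 regions. Above 30 regions it was 0.569% (0.118 to 1.66), or 3 of 527 domains. Below the threshold the same order continued, with 97.2% of the 23214 single regions outside any peak. A longer domain has more room for a peak, since the median span was 24840 bp at 8 regions and 111083 bp above 30.

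**Figure D2:**
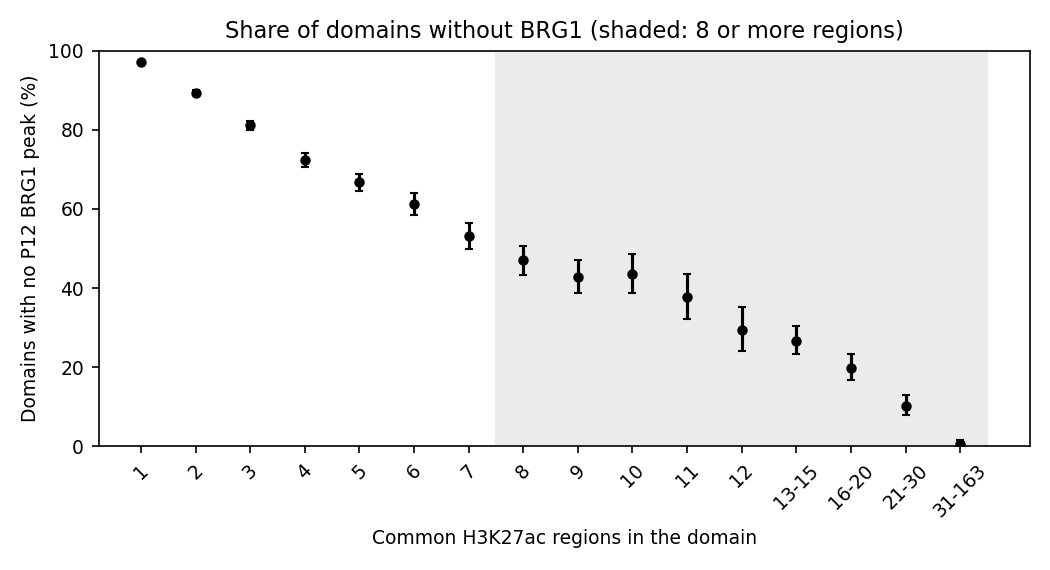
Share of H3K27ac domains that hold no P12 BRG1 peak, in percent, by the number of common regions in the domain; bars are exact 95% intervals. The share is 97.2% for single regions, 47.0% at 8 regions and 0.569% above 30, and the shaded classes hold the 1272 domains.

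Spans were compared within classes of region number. Among domains of 8 to 9 regions, those without BRG1 were the longer ones, with a median span of 27124 bp (26371 to 28250) against 25080 bp (24165 to 26110). In the fifth of these domains with the shortest spans 37.3% were without BRG1, and in the fifth with the longest spans 52.2%. At an equal number of regions, a longer span means wider spacing. The median gap in this class was 2758.75 bp (2580 to 2872) without BRG1 and 2329.5 bp (2195 to 2477.5) with it. At 10 to 12 regions the intervals of the median spans overlapped (32115 to 34273 bp and 31018 to 33046 bp), and the share without BRG1 showed no order by span, at 32.1% in the group with the shortest spans and 39.8% in the group with the longest. The median gaps at 10 to 12 regions were 2410.75 bp (2213.5 to 2555) without and 2058.5 bp (1943 to 2253) with BRG1. At 13 to 15 regions the median gaps were alike, at 2124.25 bp without and 2115.5 bp with BRG1. At 16 to 20 regions they were 2232.75 bp (1966.5 to 2399) and 1928 bp (1827 to 2045). The intervals of the median gaps overlapped at 10 to 12 and at 16 to 20 regions. At 13 or more regions, where region numbers vary widely, the share without BRG1 was 20.3% (16.7 to 24.3) in the group with the shortest spans and 1.75% (0.757 to 3.41) in the group with the longest. In narrower classes the intervals of the median spans overlapped. At 13 to 15 regions the medians were 42026.5 bp (40662 to 44339) without and 40721.5 bp (39024 to 41979) with BRG1. At 16 to 20 regions they were 52685.5 bp (50469 to 56735) and 51441 bp (49698 to 52845).

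The widths of the regions were then compared. The widest region of a domain was not used in choosing it. It had a median of 514 bp (503 to 533) without BRG1 and 585 bp (568 to 604) with BRG1 in domains of 8 to 9 regions. At 10 to 12 regions the medians were 591 bp (569 to 615) and 645.5 bp (618 to 663). A region of at least 1000 bp was present in 5.16% (3.48 to 7.33) of the 562 domains of 8 to 9 regions without BRG1 and in 8.80% (6.78 to 11.2) of the 682 with it, so these intervals overlap. At 10 to 12 regions the shares were 4.59% (2.70 to 7.25) and 13.9% (11.3 to 16.9), and at 13 or more 9.12% (6.28 to 12.7) and 29.1% (27.1 to 31.1). The last class mixes region numbers, with a median of 16 without and 21 with BRG1. Within it, the median widest region was 614 bp (576 to 665) against 707.5 bp (677 to 735) at 13 to 15 regions, and 717.5 bp (668 to 772) against 751 bp (723 to 779) at 16 to 20 regions, where the intervals overlap.

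The share without BRG1 was then read across 5 groups of equal size, ordered by the widest region. At 8 to 9 regions it was 56.6% (50.2 to 62.9) in the fifth with the narrowest widest region and 34.1% (28.3 to 40.4) in the fifth with the broadest. At 13 or more regions it was 28.8% (24.7 to 33.2) and 3.49% (2.01 to 5.61). The same held for the acetylated length. At 13 or more regions, 29.0% of the fifth with the least acetylation and 2 of 458 domains (0.437%, 0.0529 to 1.57) of the fifth with the most were without BRG1. In this class domains without BRG1 also had fewer regions, as given above.

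**Figure D3:**
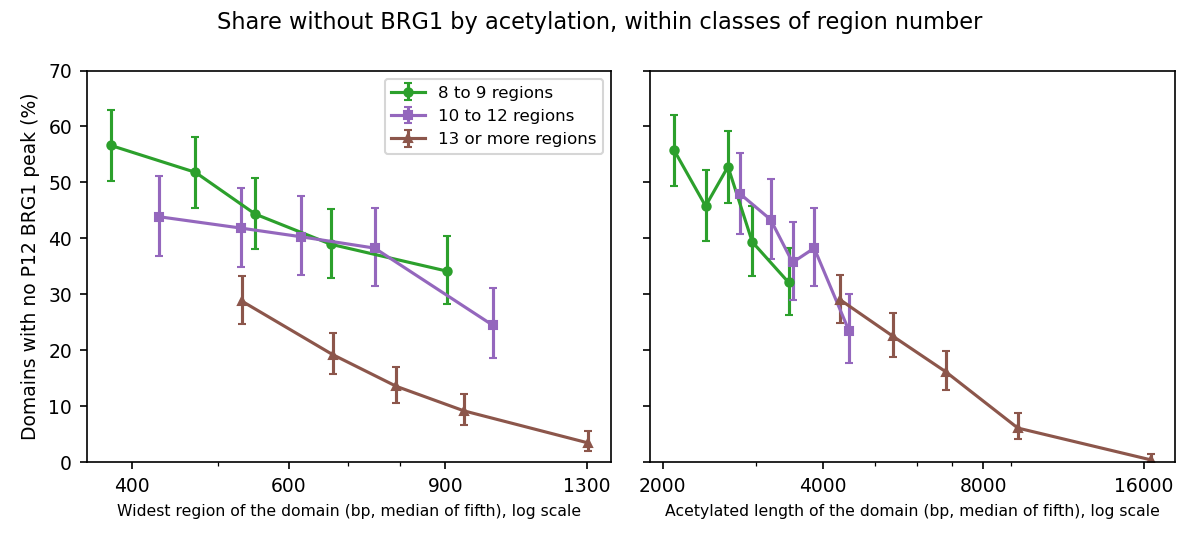
Share of domains without a P12 BRG1 peak, in percent, in 5 groups of equal size by the widest region (left) and by the acetylated length (right), both in bp on log axes, for 3 classes of region number; bars are exact 95% intervals. At 13 or more regions the share is 28.8% where the widest region is narrowest and 3.49% where it is broadest.

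To set the domains beside others with the same number of regions, the 2756 domains with BRG1 whose region number also occurred without BRG1 were weighted to the region numbers of the 1272. In classes with at least 5 domains holding BRG1, this kept all 1272. The mean widest region was 622 bp without BRG1 and 706 bp with it, a ratio of 0.882. The mean acetylated share of the span was 10.9% and 12.4% (ratio 0.881), and the mean acetylated length 3647 and 3842 bp (ratio 0.949). The mean span was 35931 and 33971 bp (ratio 1.06). Domains without BRG1 were thus on average somewhat longer and more sparsely acetylated than domains with BRG1 of the same region number. Their widest region was also narrower on average. The median region width of a domain differed less, with means of 285 bp without and 293 bp with BRG1 (ratio 0.974). These means carry no interval, and the median spans without and with BRG1 had overlapping intervals in some classes of region number.

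Among single regions, those of at least 500 bp made up 11.3% (10.8 to 11.8) in domains without BRG1 and 15.6% (15.3 to 15.9) in domains with it. Closely spaced neighbours were also fewer. Of the 13240 gaps between neighbouring regions, 9.69% (9.19 to 10.2) were 300 bp or less, against 13.6% (13.3 to 13.9) of 62317 gaps in domains with BRG1. At 8 to 9 regions the shares of such gaps were 9.19% (8.33 to 10.1) and 11.2% (10.4 to 12.1). The smallest gap anywhere in a domain was 101 bp. Regions of 1 domain share their source, so these intervals are too narrow.

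Most domains without BRG1 were not far from a peak. The median gap from the edge of a domain to the nearest P12 peak was 31.1 kb, with the middle of the distribution between 15.4 and 60.9 kb. A P12 peak lay within 50 kb of 68.2% (65.5 to 70.7) of them and within 100 kb of 87.5% (85.6 to 89.3). At the near end, the domain at chr9:100881240-100919445 ended 8 bp from a peak, and those at chr4:41618600-41646171 and at chr5:136271227-136310461 lay 35 and 104 bp from one. A small extension of these spans would have removed them.

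Few peaks lay within 10 kb of an edge, and those that did were mostly off H3K27ac. Within 10 kb, 172 of the 1272 domains (13.5%, 11.7 to 15.5) had a P12 peak. For 165 of the 172 (95.9%), the nearest peak lay in no H3K27ac domain. The joining rule favours this, because an acetylated region within 10 kb would have been joined to the domain. These 172 nearest peaks had a median −log10 q of 3.76, against 4.05 for all 18336 autosomal P12 peaks. Where the nearest peak lay farther away, 704 of 1100 (64.0%, 61.1 to 66.8) overlapped a common region, and the median −log10 q was 4.60. Of all autosomal P12 peaks, 58.8% (58.1 to 59.6) overlapped a common region. For these 1100 domains the nearest peak lay in a domain of 8 or more regions in 373 cases (33.9%), in a smaller domain in 451 (41.0%) and in no domain in 276 (25.1%). By comparison, 46.5% of all autosomal P12 peaks lay in a domain of 8 or more regions.

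At the far end, a domain of 9 regions at chr7:111335297-111370220 was 1178 kb from the nearest P12 peak, the only one beyond 1000 kb. It held 1 region gained in Brg1cKO, at 111364156 to 111364301, 146 bp wide. The next most remote were a domain of 12 regions at chr16:48247695-48299751 (694 kb) and one of 8 regions at chr9:116764590-116786159 (680 kb).

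**Figure D4:**
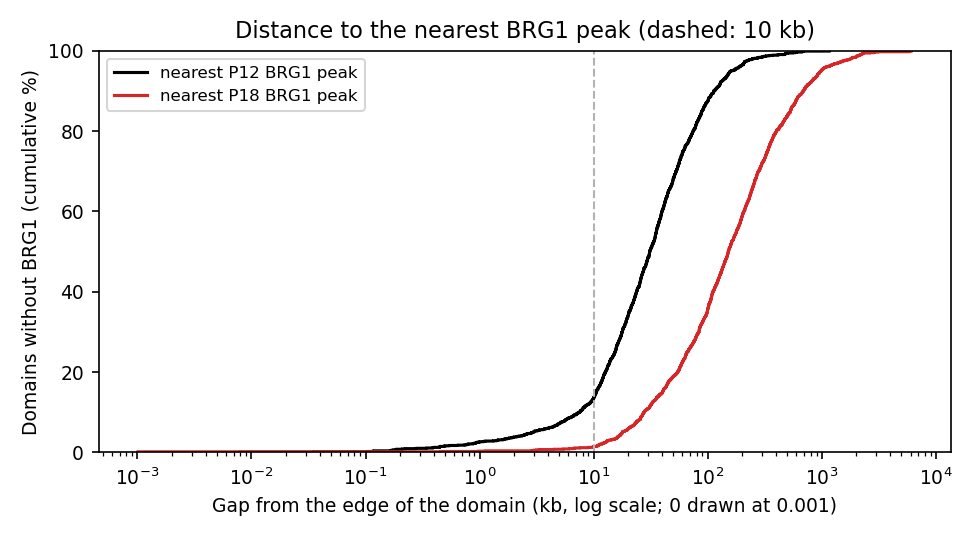
Cumulative share of the 1272 domains, in percent, by the gap from their edge to the nearest BRG1 peak at P12 (black) and at P18 (red), in kb on a log axis; the dashed line marks 10 kb. The medians are 31.1 kb for P12 and 151.4 kb for P18.

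The P18 BRG1 list, which the choice of domains did not use, held almost no peak in these domains either. Among all 4511 domains 25.4% held a P18 peak, and among domains with P12 BRG1 35.4% (33.7 to 37.0). Of the 1272 without P12 BRG1, 2 (0.157%, 0.0191 to 0.567) held one. At equal region numbers, 30.5% of the domains with P12 BRG1 held a P18 peak. The lists are not independent, since only 65 of the 3020 P18 peaks overlap no P12 peak. Of these 65, 25 lay in a domain of 8 or more regions, and 23 of the 25 in a domain that also held a P12 peak elsewhere in its span.

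The 2 P18 peaks lay at different distances from acetylation. On chromosome 16, the peak at 14316945 to 14317797 was 853 bp wide with a −log10 q of 2.62. It was 232 bp from the nearest common region of its domain, which held 9 regions at 14314898 to 14332997. On chromosome 9, the peak at 108295236 to 108295723 was 488 bp wide with a −log10 q of 2.52. It lay 2747 bp from the nearest region of its 8-region domain at 108292185 to 108311150. Neither overlapped an acetylated region, and H3K27ac was mapped at P12 only. The median gap from a domain without BRG1 to the nearest P18 peak was 151.4 kb.

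H3K27ac regions that differed between the genotypes were rare in the domains without BRG1. A gained region lay in 32 of the 1272 (2.52%, 1.73 to 3.53), where 3.13% of all 4511 domains held one, and a lost region in 24 (1.89%, 1.21 to 2.79), where 3.33% did. In all, 56 domains held a changed region and no domain held both kinds. In domains with BRG1 the shares were 3.37% (2.77 to 4.05) for gained and 3.89% (3.25 to 4.61) for lost regions. The intervals of the 2 sets overlapped for gained and not for lost regions. With 10 kb added on either side of the span, 51 domains without BRG1 (4.01%) held a gained region, where 4.63% of all 4511 did, and 43 (3.38%) a lost region, where 5.05% did.

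Domains with BRG1 were also the larger ones, with a median of 15 common regions against 10. With domains of the same region number set side by side, a gained region was held by 2.52% without and 2.57% with BRG1, and a lost region by 1.89% and 2.45%. At 8 to 9 regions, lost regions were found in 1.42% (0.617 to 2.79) without BRG1 and 1.03% (0.414 to 2.10) with it. At 13 or more regions they were found in 2.35% (1.02 to 4.58) and 5.08% (4.15 to 6.16). Gained and lost regions lie outside common ones, so they were also counted per Mb of span outside common regions. There were 0.779 gained (0.533 to 1.10) and 0.609 lost regions per Mb (0.394 to 0.899) without BRG1, and 0.705 (0.580 to 0.849) and 0.851 (0.713 to 1.01) with it. Within classes of region number, and per Mb, the intervals of the 2 sets overlapped.

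**Figure D5:**
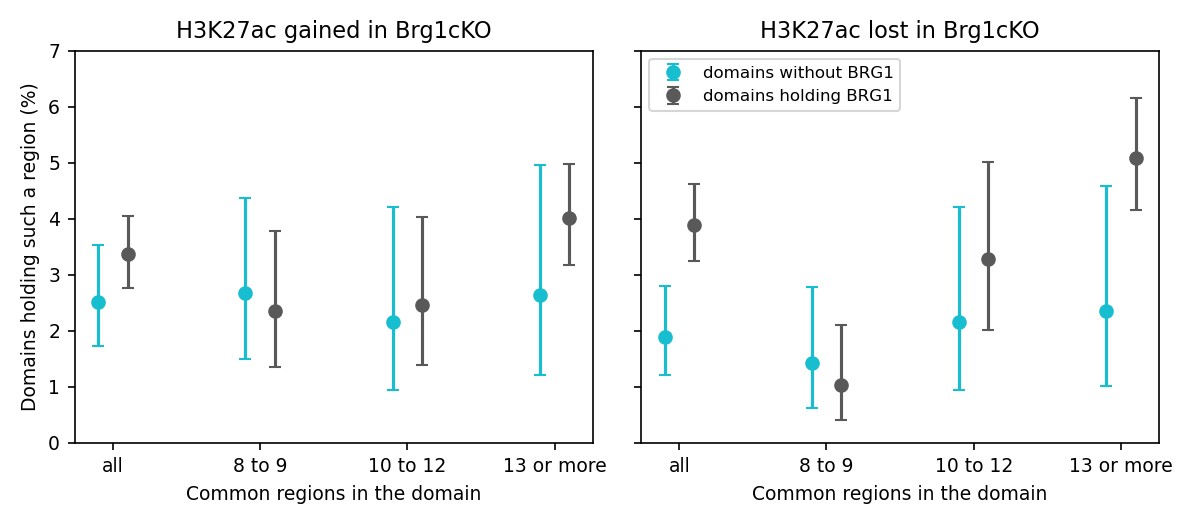
Share of domains that hold an H3K27ac region gained (left) or lost (right) in Brg1cKO, in percent, by the number of common regions, for domains without (cyan) and with (grey) a P12 BRG1 peak; bars are exact 95% intervals. For gained regions the intervals overlap in each class, and for lost regions they are apart over all domains (1.89% and 3.89%) and overlap in each class of region number.

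The gained regions in these domains had a median width of 164.5 bp (10 to 264), and the lost ones 162 bp (6 to 237). They lay in the gaps between common regions, at a median of 1322 bp from the nearest one for gained and 1110 bp for lost regions. Over the whole autosomal lists these distances were 4196 and 3036 bp, and inside domains with BRG1 829 and 1174 bp. Shorter distances inside domains than over the whole list are fixed by the joining rule, which allows no gap over 10 kb. Common regions were also spaced more widely in domains without BRG1, with a median gap of 2431 bp against 1886 bp in domains with it. Within 500 bp of a common region lay 8 of the 32 gained and 7 of the 25 lost regions. The same count was not made in domains with BRG1 or over the whole lists.

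The domain with a gained region that had the most common regions lay at chr17:80336706-80437134. It held 27 common regions, and the gained region at 80431065 to 80431306 sat 4029 bp from the nearest of them, in a gap of 9809 bp. On chromosome 11, a domain of 20 regions at 60853904 to 60903131 held a gained region at 60864353 to 60864555, 130 bp from a common one. A pair of 19-region domains, at chr2:52803391-52868159 and at chr9:122090749-122165263, held gained regions 1619 and 3078 bp from the nearest common one. Gained regions therefore lay both close to common regions and several kb from them.

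The next domains with a gained region, by region number, held 16 or 13 common regions. At chr11:86621986-86672490, a 16-region domain lay 545 bp from a P12 peak, the nearest of this set. The 16-region domain at chr2:165578141-165629583 lay 41.6 kb from one. The 13-region domains at chr1:75047416-75089904 and at chr11:72313746-72356453 lay 31.4 and 9.91 kb from one.

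Among domains with a lost region, 1 held 2 of them. It lay at chr1:120985596-121093577 with 25 common regions and had the third longest span of the 1272 (107982 bp). Its lost regions were at 121056567 to 121056716, 207 bp from a common region, and at 121075375 to 121075439, 3259 bp from one. The 35-region domain on chromosome 8 described above held a lost region 1895 bp from a common one. The lost region chr7:36021665-36021889 lay 171 bp from a common region at the edge of a 9926 bp gap, in a domain of 13 regions at 36005602 to 36044283.

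The remaining named domains with a lost region differed widely in their distance from BRG1. The 17-region domain at chr4:42665525-42719047 was 211 kb from a P12 peak, and that at chr10:58875642-58923810 was 78.3 kb from one. At chr17:29286220-29336148, an 18-region domain lay 38.2 kb away. The 19-region domain at chr5:148546448-148607371 and the 14-region domain at chr6:126695034-126746299 lay 8.23 and 4.27 kb from a peak.

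Chromosomes differed in how many of their dense domains were without BRG1, where the share over all 4511 domains was 28.2%. Chromosome 13 had the highest share, with 63 of 149 domains (42.3%, 34.2 to 50.6), followed by chromosome 6 (36.4%, 30.3 to 42.9) and chromosome 18 (36.1%, 27.6 to 45.3). The lowest were chromosome 4 with 75 of 356 (21.1%, 16.9 to 25.7) and chromosome 16 with 25 of 117 (21.4%, 14.3 to 29.9). Over all chromosomes, domains of 8 to 12 regions numbered 932 without and 1292 with BRG1. Among domains of 8 to 12 regions the shares were highest on chromosome 13, at 53.3% (42.5 to 63.9), and lowest on chromosome 16, at 28.8% (17.8 to 42.1). In that class chromosome 4, with 35.9% (28.4 to 43.8), lay above chromosome 16 and beside chromosome 11 (35.1%, 27.99 to 42.6), with overlapping intervals.

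Domains without BRG1 had somewhat more neighbours without BRG1 than domains with BRG1 had. Of the next domains of 8 or more regions on either side of a domain without BRG1, 33.4% (31.6 to 35.3) were without BRG1 as well, against 26.1% (25.02 to 27.18) beside a domain with BRG1. Over all 4511 domains the share without BRG1 was 28.2%. Each pair of neighbours is counted from both sides, so these intervals are too narrow. Region number and chromosome were not held equal, and series of domains with BRG1 were not counted. The longest series held 8 domains in a row, over 2589 kb of chromosome 13 at 45955410 to 48544585. The 13 P12 peaks of that stretch lay outside the 8 domains. The next longest held 7 domains over 5729 kb of chromosome 3, with 319 common regions and 23 P12 peaks. There were 5 series of 6 domains, and their lengths varied widely. A series of 6 domains, also on chromosome 13, took up 782 kb at 112768660 to 113550893, with 121 common regions and 3 P12 peaks. Another, on chromosome 10, took up 12540 kb with 443 common regions and 20 P12 peaks. Most domains without BRG1 stood alone or in pairs, in 575 and 180 such series.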

How the data were processed

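ChIP-seq libraries of mouse spermatogenic cells were grouped by their titles. The submitters' processing notes name build mm9 and the tools MACS2, deepTools 2.5.2, Picard, SAMtools and Bowtie or Bowtie2, without their role or order. The authors deposited 1 region list per class, and the sources used here do not say how libraries were merged. The deposited −log10 q of BRG1 peaks was used to describe and filter peaks. The deposited scores have no known scale for H3K27ac, restate the −log10 q for BRG1, and were not used.

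Here, common H3K27ac regions on chromosomes 1 to 19 were joined into domains, without the gained and lost ones. Overlap meant at least 1 bp (Python 3.11.15, pandas 2.3.3, scipy 1.17.1). Functions were tested on simulated regions. The members, lists and comparisons were chosen with earlier results of these data known. Named domains are those with the most regions, acetylated length, span or covered share, those with a gained, lost or P18 region (at most 8 of a kind, by region number), the nearest to and farthest from a P12 peak, and those at the edges of the rule. Alternatives varied the joining distance, region number, peak strength, peak position, region width, repeated names and chromosomes. The weighting to equal region numbers, the rates per Mb, the 10 kb added to spans, the groups by width and the series of neighbours were chosen after seeing the data. No mm9 gene annotation or genome sequence was used here, so sequence composition and genes were left out.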

Additional observations from a re-analysis of the deposited data

How the results depend on the processing

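Of 310 values recomputed under other settings, 252 stayed within their interval, or within 1.5 times their count. No ratio of medians between domains without and with BRG1 changed direction. Most of the 310 came from leaving out 1 chromosome at a time. The share of domains without BRG1 stayed within its interval in all 19 such runs. It did so in 3 of the 12 other settings, and over those 12 it ran from 16.5 to 53.7%. Leaving out each chromosome gave 1175 to 1247 domains without BRG1 and shares of 27.7 to 28.8%. The number of domains was 2527 with at least 6 regions, 710 with at least 10, 423 with at least 12, and 2424 when only peaks with a −log10 q of at least 5 counted. The share of domains without BRG1 was 30.3% at a joining distance of 5 kb and 24.4% at 20 kb. It was 37.9%, 21.7% and 16.5% with at least 6, 10 and 12 regions. Counting only peaks with a −log10 q of at least 3 or 5 gave 35.5% and 53.7%. Classing domains with a peak within 10 kb as domains with BRG1 gave 24.4%, and counting only peaks on a common region gave 34.5%. The share holding a gained region was 0.765% at 5 kb, 3.75% at 1.25 times the joining distance and 5.08% at 20 kb, and the share holding a lost region was 2.83% and 3.79% at these longer distances; wider joining leaves more room between regions by construction. The share with a P18 peak was 0% with at least 10 or 12 regions, since both such domains had fewer, 4.46% at a −log10 q of at least 5 and 1.42% with peaks on a common region only. No paired analysis was possible because the lists give both libraries of a group together, and for the same reason no library could be left out. The lists carry no read counts, so how far depth limits the P12 list was not tested.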

Other observations

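The mean acetylated share along the span was read in domains of 8 to 12 regions without BRG1. A mean over domains does not show how acetylation is spread within a single domain, and the joining rule allows no gap over 10 kb. With the span cut into 5 equal parts, the mean acetylated share was 13.2% in the part at the start, 9.33% in the middle and 13.1% at the end, in 932 domains. In 1292 domains with BRG1 the shares were 14.96%, 10.4% and 14.9%. Both end parts are raised by construction, because every domain starts and ends on a region, and the 3 inner parts lay between 9.01% and 9.33% without BRG1.

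The names of common regions are numbered along the chromosomes with gaps. Inside domains without BRG1, the list kept 51.6% of the numbers between the first and last region, against 49.3% in domains with BRG1 and 37.9% over the whole list. A share above that of the whole list is favoured by construction, because domains are dense runs that start and end on a kept region. At equal region numbers the mean shares were 55.1% without and 54.6% with BRG1 (ratio 1.01). In the domains without BRG1, 715 of the 14512 regions repeated the name of another region. The same count was not made in domains with BRG1 or over the whole list, so it is not a trait of these domains. With repeated names joined into 1 region, 1174 domains (27.7%) were without BRG1. The ratio of the median widest region, without over with BRG1, was then 0.661 in place of 0.778.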
